A study of Mus musculus with 11 samples.

Results

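The nuclear-encoded genes of the mitochondrial respiratory complexes and of ATP synthase were examined in RNA-seq data from im-scWAT cells, a line of mouse inguinal subcutaneous white fat preadipocytes immortalized with SV40 large T antigen. Genes were taken by name: coding genes whose symbol begins with Nduf, Uqcr or Atp5, the 4 Sdh genes, Cyc1, Cycs, Cox5a, Cox5b, Cox6c, Cox7b and Cox7c, if the FPKM was at least 1 in a sample. FPKM is a level corrected for transcript length and sequencing depth. All 78 genes with such names passed, among 12263 coding genes that passed of 21452 in the files. They comprise 37 genes of complex I (with Ndufa4l2, a paralog of Ndufa4), 5 complex I assembly factors, 4 genes of complex II, 9 of complex III, the cytochrome c gene, 6 of complex IV and 16 of ATP synthase, which is complex V. The names reach only part of complex IV, and Ndufa4 was counted there because its product is a subunit of that complex. Atp5sl was counted with the assembly factors.

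There were 11 samples. In the time course, 1 sample each was taken at days 0, 4 and 8 of adipocyte differentiation from cells labelled with or without rosiglitazone (ROS, 0.5 µM), a PPARγ ligand that turns these cells into beige instead of white adipocytes. ROS was first added at day 0, so both day 0 samples are preadipocytes, and they serve as a pair. The other 5 samples were taken at day 8 with ROS, and all of them carried an shRNA against mouse Jmjd1a, driven by a U6 promoter in a retrovirus, together with a V5-tagged human JMJD1A expressed from a retroviral LTR. JMJD1A is an H3K9 demethylase. The human protein was wild type (WT, samples A and B), S265A, which cannot be phosphorylated at that serine, S265D, a phosphomimetic, or S265D-H1120Y, in which the demethylase is also inactive, with 1 sample for each mutant. The transduced cells were drug-selected, and none of the samples used here carried the shRNA alone. The labels and the study's methods differ on whether ROS was taken away for the last day before day 8. Nothing states that the samples came from separate cultures, so p-values measure only the spread between these samples, which may be technical.

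Oxidative phosphorylation is the main source of ATP in mitochondria. Complexes I and II pass electrons from NADH and succinate to ubiquinone, complex III hands them to cytochrome c, complex IV gives them to oxygen, and ATP synthase uses the proton gradient that complexes I, III and IV build. Most of the subunits are encoded in the nucleus and only a few of the core ones by mitochondrial DNA. Brown and beige adipocytes are rich in mitochondria and let protons back through UCP1, and brown fat is known for its low content of ATP synthase relative to the respiratory chain.

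Between 3.10 and 5.29 Gb of mapped bases lay behind each sample (median 4.64 Gb). The members were abundant, and 73 of 78 had an FPKM of 10 or more in every sample. The lowest coverage of a member in a sample was 596 mapped bases, for Ndufa4l2. All 10 adipocyte markers were higher in the differentiated samples than at day 0 in limma, as with Adipoq, an adipocyte hormone, with FPKM from 396.5 to 1291 there and at most 0.121 at day 0. The macrophage genes Emr1 and Ptprc and the muscle genes Myod1, Myog and Ckm were listed at 0 in all samples. Other genes of the same lists were detected. Among the macrophage genes, Cd68 had 2.43 and 2.18 at day 0 and 21.7 in S265D-H1120Y, and Cd14 had 5.56 and 5.42 at day 0. Csf1r and Itgam stayed under 1. The muscle genes Acta1 and Mb reached 19.3 in WT B and 15.7 in WT A. The row of Jmjd1a, named Kdm3a in the files, had FPKM from 13.0 to 28.5 in the transduced samples and 21.1 in untransduced cells at day 8 with ROS. How reads of the human transcript were aligned is not given in the sources used here, so this row does not check the knockdown.

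Promoters of 5 members are shown because these genes mark the range of what follows: Cycs, the cytochrome c gene, had the largest rise on differentiation and with ROS at day 8, Uqcrfs1, the Rieske iron-sulfur protein of complex III, stood high in both, and Atp5g1, Atp5g2 and Atp5g3 encode the same mature c subunit of the ATP synthase ring but differed in their rise. The sequences are from RefSeq (GRCm38.p6), 250 bases before to 50 after the gene start, 5′ to 3′ on the strand of the gene, and all 5 genes lie on the minus strand. Capitals mark matches on either strand to the NRF1 core (GCGCATGC), the ERR motif (AAGGTCA), the ETS core (CCGGAAG), a YY1 site (AAGATGGC) or the cAMP response element CRE (TGACGTCA).
Cycs, chr6:50566520-50566819: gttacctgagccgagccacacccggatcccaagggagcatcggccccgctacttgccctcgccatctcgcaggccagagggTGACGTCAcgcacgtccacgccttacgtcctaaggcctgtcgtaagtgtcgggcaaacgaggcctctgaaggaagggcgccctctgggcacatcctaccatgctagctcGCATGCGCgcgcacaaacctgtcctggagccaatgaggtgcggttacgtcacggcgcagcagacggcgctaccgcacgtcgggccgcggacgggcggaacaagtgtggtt
Uqcrfs1, chr13:30545267-30545566: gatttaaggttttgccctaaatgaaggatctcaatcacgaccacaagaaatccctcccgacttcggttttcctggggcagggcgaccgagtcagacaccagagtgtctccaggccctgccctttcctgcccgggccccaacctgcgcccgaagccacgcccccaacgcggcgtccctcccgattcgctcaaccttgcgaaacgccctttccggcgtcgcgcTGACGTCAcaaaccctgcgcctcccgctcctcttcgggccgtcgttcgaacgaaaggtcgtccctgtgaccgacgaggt
Atp5g1, chr11:96075582-96075881: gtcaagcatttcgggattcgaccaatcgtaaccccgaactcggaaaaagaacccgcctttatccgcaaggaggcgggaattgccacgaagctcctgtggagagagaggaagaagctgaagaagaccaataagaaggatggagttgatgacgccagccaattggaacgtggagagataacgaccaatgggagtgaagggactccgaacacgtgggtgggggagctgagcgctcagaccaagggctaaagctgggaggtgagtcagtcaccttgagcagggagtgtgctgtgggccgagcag
Atp5g2, chr15:102670998-102671297: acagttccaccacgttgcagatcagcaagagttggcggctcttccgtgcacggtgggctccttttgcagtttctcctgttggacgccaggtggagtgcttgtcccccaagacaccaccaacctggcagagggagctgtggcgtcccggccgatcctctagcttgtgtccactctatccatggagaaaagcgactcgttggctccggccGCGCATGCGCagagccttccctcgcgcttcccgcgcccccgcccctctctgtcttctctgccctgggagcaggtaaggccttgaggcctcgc
Atp5g3, chr2:73911277-73911576: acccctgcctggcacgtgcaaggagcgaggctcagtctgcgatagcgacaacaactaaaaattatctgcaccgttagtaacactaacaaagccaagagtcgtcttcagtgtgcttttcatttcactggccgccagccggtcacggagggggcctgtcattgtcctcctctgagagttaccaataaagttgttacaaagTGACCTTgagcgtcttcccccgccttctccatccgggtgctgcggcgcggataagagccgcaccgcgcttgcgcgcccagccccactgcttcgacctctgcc

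The Cycs window held a CRE beginning at -169 and an NRF1 core at -60 relative to the gene start. The Uqcrfs1 window held a CRE at -29, Atp5g2 an NRF1 core that overlaps its own reverse match at -42 and -40, and Atp5g3 an ERR motif at -52. None of these letters were found in the Atp5g1 window. A promoter was matched for 66 of 78 members, 63 by symbol and 3 by an older name, with 72 windows in all because 6 genes had more than 1. The NRF1 core was in 15.3% of the 72 windows and in 2.71% of all 32851 windows of the table, and the YY1 site was in 16.7% and 2.75%. The ETS core was in 19.4% and 8.86%, the ERR motif in 11.1% and 4.72%, and the CRE in 6.94% and 1.79%. With any letter at the third position, the YY1 site (AANATGGC) was in 27.8% and 6.05%. A DR1 element, the site of PPARγ with RXR, was in 1.39% of the member windows, in Ndufs6, and in 0.222% of all. These shares are descriptions without a test, and the member windows were richer in G and C than all windows, with medians of 59.0% and 52.7%.

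The first comparison asked how the members changed as preadipocytes became adipocytes. In the 9 differentiated samples, 60 of the 78 genes were higher than at day 0 and 0 were lower (limma on log2(FPKM + 0.1), Benjamini-Hochberg adjusted p under 0.05). Among all 12263 genes, 19.4% were higher and 20.6% were lower. An unadjusted p under 0.05 was reached by 66 members (84.6%), all of them higher, and by 49.1% of all genes in either direction. The median log2 ratio was 1.02 over the members, a 2.03-fold difference, and -0.05 over all genes. For 67 members all 9 differentiated samples lay above both day 0 samples, against 22.5% of all genes. The members made up 2.66% and 2.72% of the summed FPKM of all genes at day 0 and 4.49% to 7.52% after differentiation. The plot of levels by sample shows this step for each complex.

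**Figure D1:**
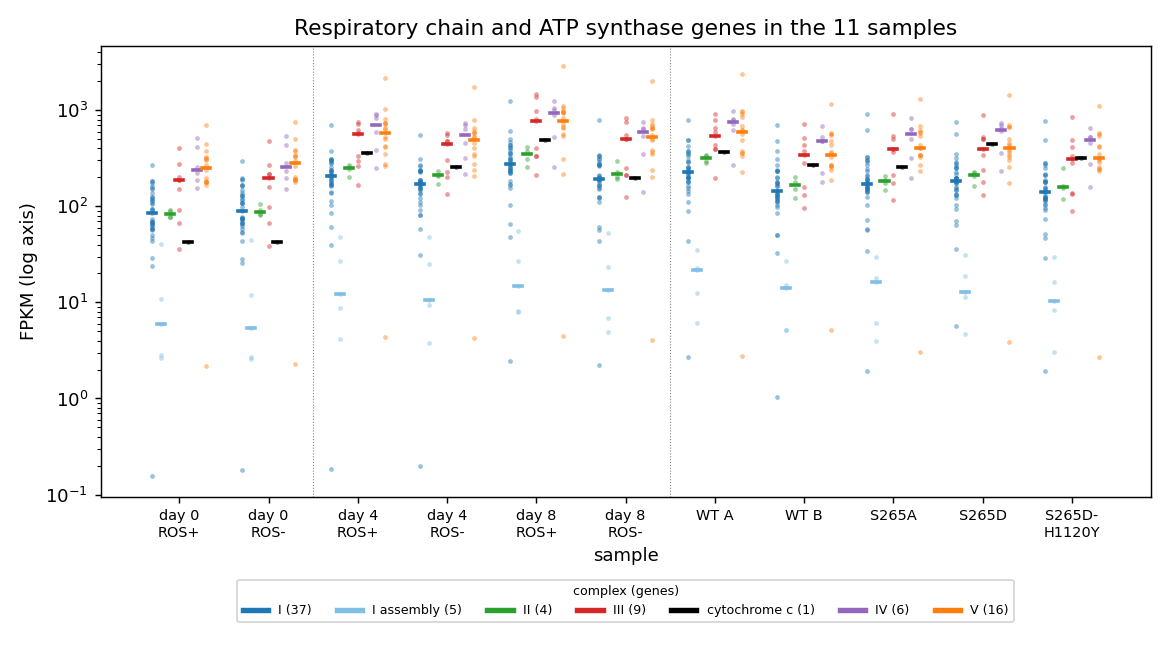
FPKM (log axis) of the 78 genes in each of the 11 samples, grouped by complex; points are genes and bars the median of a complex. The median of complex III was 189 and 197 at day 0 and between 311 and 779 in the differentiated samples, and day 8 with ROS had the highest median of every group except the assembly factors.

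Cytochrome c, the mobile carrier between complexes III and IV, changed most. Cycs (chr6:50512562-50516473, mm9) had FPKM of 42.3 and 42.5 at day 0 and from 196 to 484 in the differentiated samples, with a median of 321. The groups did not overlap, and the log2 ratio was 2.90 (SE 0.30, limma adjusted p = 2.58e-05). Cytochrome c has many processed pseudogenes, and how reads shared with them were assigned is not given in the sources used here. At day 0 Cycs was the lowest of the groups apart from the assembly factors, while at day 4 with ROS its FPKM of 362 was above the medians of complexes I and II, 209 and 250.

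Complex III, the cytochrome bc1 complex, had the largest median change among the multi-gene groups, a log2 ratio of 1.41, and 7 of 9 genes passed. Uqcrq, a small ubiquinone-binding subunit, went from FPKM of 203 and 216 at day 0 to a median of 858 (log2 ratio 2.00, SE 0.26, limma adjusted p = 0.000144). Uqcrc2, a core subunit, went from 36.1 and 38.2 to a median of 130 (log2 ratio 1.87, SE 0.30). Uqcrfs1 had 67.3 in both day 0 samples and a median of 226 afterwards (log2 ratio 1.81, SE 0.36, limma adjusted p = 0.00226). All 3 were higher in each differentiated sample than at day 0. Cyc1, the cytochrome c1 subunit, had a log2 ratio of 1.53, Uqcr10 of 1.41, Uqcr11 of 1.31 and Uqcrc1, the other core subunit, of 1.18. Uqcrh, the hinge protein (0.59), and Uqcrb (0.36) did not pass. Uqcrb had 272 and 270 at day 0 and from 212 to 525 later, so its groups overlapped.

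In complex II, which is also the succinate dehydrogenase of the citric acid cycle, all 4 genes passed with log2 ratios in a narrow range. Sdha, the flavoprotein, went from 89.5 and 92.6 to a median FPKM of 211 (log2 ratio 1.30). Sdhb, the iron-sulfur subunit, went from 92.4 and 105 to 248 (1.35). The membrane anchors Sdhc and Sdhd went from 77.1 and 81.9 to 171 (1.15) and from 77.2 and 82.5 to 228 (1.52). The limma SE of the 4 ratios was 0.24 to 0.34.

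In complex I, the NADH dehydrogenase, 29 of 37 genes passed and the median log2 ratio was 1.01. The leading genes were Ndufc2 (log2 ratio 1.77, SE 0.23), an accessory subunit, Ndufv1 (1.72, SE 0.30), the NADH-binding flavoprotein, and Ndufab1 (1.66, SE 0.32), the mitochondrial acyl carrier protein. Ndufv1 had FPKM of 59.6 and 65.3 at day 0 and from 143 to 324 afterwards. The core subunit Ndufs1 went from 29.2 and 28.2 to a median of 70.0 (log2 ratio 1.35). The most abundant complex I genes were Ndufb9, from 266 and 299 to a median of 775 (1.48), Ndufa6, from 161 and 167 to 485 (1.49), and Ndufa7, with a log2 ratio of 0.68, all of which passed. Ndufb7 (0.35), Ndufa5 (0.43) and Ndufs4 (0.46) had the smallest log2 ratios in the complex and did not pass.

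Ndufa4l2, which was counted with complex I by its symbol alone, stood apart from the other genes there. Its FPKM was 0.155 and 0.179 at day 0 and 0.185 and 0.200 at day 4 with and without ROS, and then 2.43 and 2.21 at day 8. Among the transduced samples, WT A and WT B had 2.68 and 1.04, S265A had 1.91, S265D 5.64 and S265D-H1120Y 1.95. It was low in every sample beside the other complex I genes, whose mean FPKM was 35.3 or more. It appeared between day 4 and day 8, and its log2 ratio against day 0 of 2.49 had a wide SE of 0.95 (limma adjusted p = 0.0544).

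Of the complex I assembly factors, which help to build the complex and are not part of it, Ndufaf4 (1.57), Ndufaf3 (1.28), Ndufaf1 (0.86) and Atp5sl (0.79) passed. Ndufaf2 was the one member with a negative log2 ratio, -0.16 (SE 0.29, limma adjusted p = 0.691). Its FPKM was 40.6 and 44.9 at day 0, 47.4 to 55.8 in the differentiated time course and 27.2 to 34.7 in the transduced samples. It was higher than at day 0 in the first set and lower in the second.

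Complex IV is cytochrome c oxidase, and 4 of its 6 members passed. Cox5b (1.43), Cox7c (1.36), Cox6c (0.91) and Cox5a (0.90) were higher, with median FPKM of 587, 647, 741 and 346 in the differentiated samples. Cox7b (log2 ratio 0.43) and Ndufa4 (0.36) did not pass. Ndufa4 began high, with 511 and 540 at day 0, and had a median of 640 afterwards. Among 10 further complex IV subunits that were measured, 9 were higher and 0 lower, beside 19.4% and 20.6% of all genes, and Cox6b2 did not pass. The isoforms known from muscle and brown fat changed most. Cox8b was at 0 in both day 0 samples and reached 117 at day 8 with ROS, Cox7a1 went from 5.45 and 7.49 to 156 there, and Cox6a2 from 0.355 and 0 to 30.1.

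ATP synthase had a median log2 ratio of 0.91, and 11 of 16 genes passed. Atp5b, the catalytic beta subunit and the most abundant member, had FPKM of 698 and 750 at day 0 and from 1116 to 2855 afterwards (log2 ratio 1.24, SE 0.34, limma adjusted p = 0.0126). Atp5a1, the alpha subunit, had 237 and 262 and then from 266 to 948, and with its log2 ratio of 1.10 it missed the threshold (SE 0.42, limma adjusted p = 0.0565). Atp5l, a membrane subunit, went from 372 and 385 to a median of 675 (0.92).

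The c-subunit genes parted within this complex. Atp5g3 had FPKM of 311 and 337 at day 0, 1040 and 793 at day 4 with and without ROS, 1098 and 788 at day 8, and 573 to 977 in the transduced samples. Its log2 ratio was 1.27 (SE 0.26, limma adjusted p = 0.00276). Atp5g1 had 179 and 191 at day 0 and from 174 to 263 later, and Atp5g2 had 445 and 503 at day 0 and from 389 to 716 later. Both overlapped with day 0, and their log2 ratios were 0.22 (SE 0.18) and 0.08 (SE 0.21). At day 0 the order of FPKM was Atp5g2, Atp5g3 and Atp5g1, and in every differentiated sample Atp5g3 came first. The difference between these ratios was not tested.

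**Figure D2:**
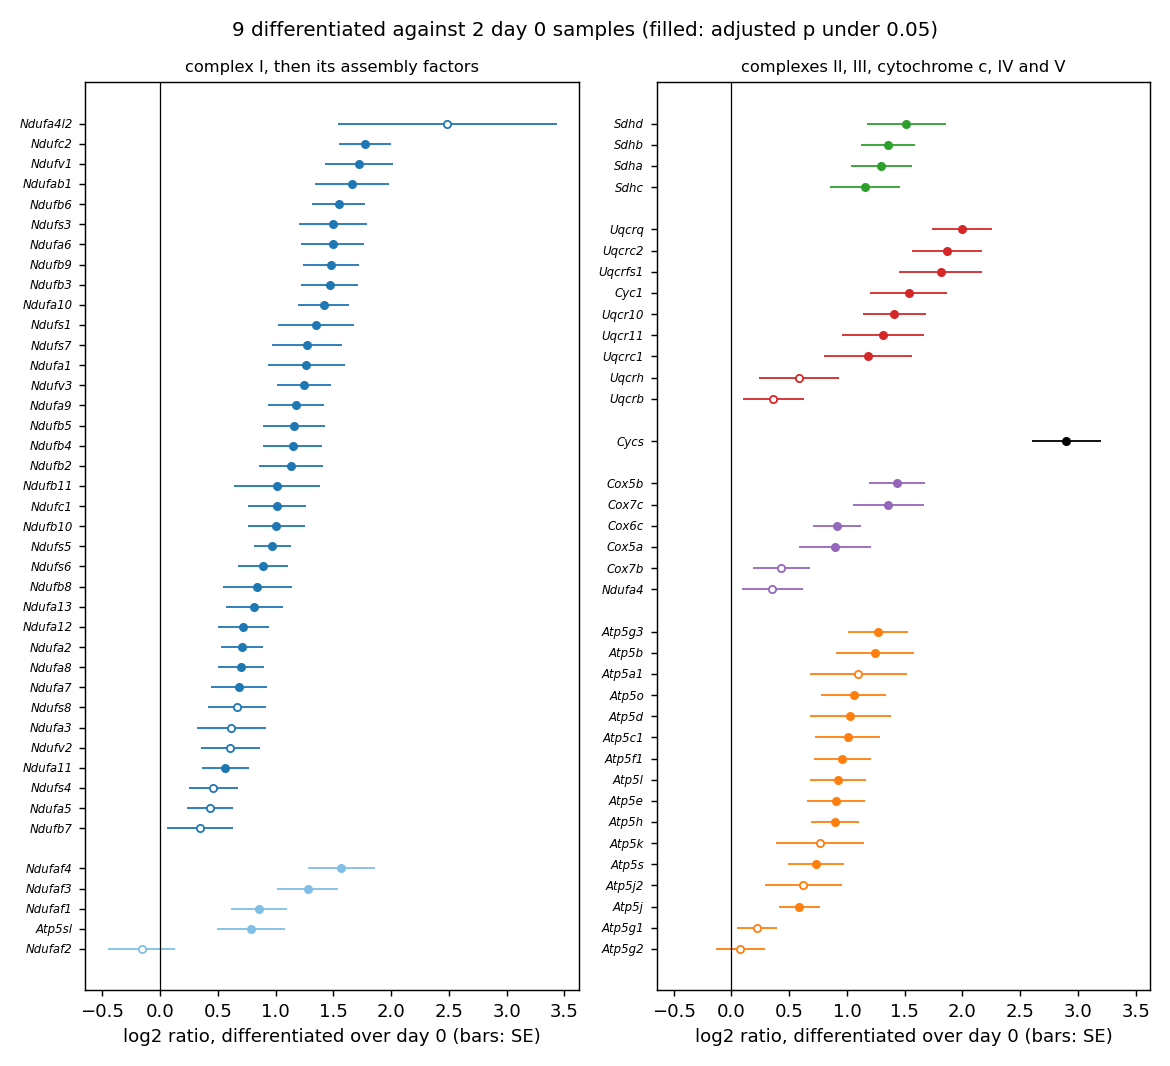
Log2 ratio of FPKM + 0.1 in 9 differentiated over 2 day 0 samples for 77 of the 78 genes, with the limma SE as bars; filled points passed an adjusted p of 0.05. Cycs lies farthest right among the filled points at 2.90, and Atp5g1, Atp5g2 and Ndufaf2 lie nearest to 0.

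The 9 differentiated samples are unlike one another, so the SE of this comparison includes ROS, day and JMJD1A. Only 2 samples stand on the day 0 side, and 23 members passed without the sample labelled ROS plus and 26 without the one labelled ROS minus. The day 0 pair itself differed by a median log2 ratio of -0.10 over the members (ROS plus over minus, both untreated), with 6 of 78 genes higher against 45.6% of all genes.

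Much of the rise was present by day 4, since the median log2 ratio to day 0 was 1.62 at day 8 with ROS and 1.09 without it. With ROS, all 78 genes were higher at day 4 than at day 0, with a median log2 ratio of 1.20, and 49 were 2-fold or more higher. Over all genes 48.0% were higher and 15.2% 2-fold or more higher. Without ROS, 76 genes were higher, with a median of 0.88, and 32 were 2-fold or more higher, against 52.2% and 15.3% of all genes. In limma over the 6 time course samples, 71 members passed with ROS and 62 without, beside 24.4% and 23.3% of all genes called higher. These calls use only the spread of the day 0 pair, with 1 residual degree of freedom. In 1 fit of all 11 samples they fell to 3 and 1, beside 4.53% and 3.47% of all genes called higher. Without either day 0 sample the spread came from the WT pair instead, and no call held.

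Between day 4 and day 8 the median difference was larger with ROS than without it. With ROS, 74 of 78 had a higher FPKM at day 8, with a median log2 ratio of 0.42, against 40.4% of all genes. The 2 members that were 2-fold or more higher, beside 4.17% of all genes, were Ndufa4l2 and Ndufa3, an accessory subunit of complex I that went from 209 to 436. Without ROS, 58 of 78 were higher, with a median of 0.18, against 55.0% of all genes, and Ndufa4l2 alone was 2-fold higher, beside 5.50%. Cycs had 362 and 484 at days 4 and 8 with ROS, and 259 and 196 without it. Uqcrfs1 had 293 and 400 with ROS, and 226 and 210 without it. Both thus had a higher value at day 8 with ROS and a lower one without it. In limma 0 members and 0% of all genes passed in either comparison, with 40 and 17 members at an unadjusted p under 0.05, or 51.3% and 21.8%, against 33.2% and 31.3% of all genes. For the ROS effect at day 8 minus that at day 4, 0 members passed and 8 (10.3%) had an unadjusted p under 0.05, against 17.8% of all genes.

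The next comparison asked what ROS, the beige-inducing treatment, did at each day. At day 4 the FPKM with ROS was higher in 75 of 78 members, against 39.8% of all genes, and the median log2 ratio was 0.29, or 1.22-fold. The 3 exceptions were Ndufa4l2, Ndufaf2 and Ndufaf4. The ratio was 2-fold or more for 0 members and 0.342% of all genes. In limma 0 members and 0% of all genes passed, with 6 members (7.69%) at an unadjusted p under 0.05 against 10.6% of all genes.

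At day 8 all 78 members had a higher FPKM with ROS than without, against 30.6% of all genes. The median log2 ratio was 0.55, or 1.46-fold, over the members and -0.20 over all genes. Only Cycs was 2-fold or more higher, and 0 members were 2-fold lower, beside 2.40% and 10.2% of all genes. Cycs was also the 1 member that passed in limma (log2 ratio 1.30, SE 0.10, limma adjusted p = 0.0481), where 1.23% of all genes were called higher, and 53 members (67.9%) had an unadjusted p under 0.05 against 34.7% of all genes. This call rests on the spread of the day 0 pair and was lost in 1 fit of all 11 samples and with the transcript of highest mean FPKM. It was also lost without either day 0 sample, where the spread came from the WT pair instead. The median member SE was then 0.600, against 0.115 in the main fit. With a median-ratio scaling between samples, the median of all genes at day 8 moved by 0.19 to -0.01 and that of the members to 0.75, and 8 members were then 2-fold or more higher.

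By complex, the median log2 ratio at day 8 was 1.30 for cytochrome c, 0.72 for complex III, 0.70 for IV, 0.53 for II, 0.51 for V, 0.50 for I and 0.20 for the complex I assembly factors. After Cycs the largest ratios were those of Uqcrh (0.95), Uqcrfs1 (0.93), Ndufb5 (0.88) and Ndufa6 (0.86). Uqcrh had 1466 with ROS and 757 without. Uqcrfs1 had 400 and 210, and Ndufb5, a membrane-arm subunit of complex I, had 222 and 121. The smallest were those of Ndufaf2 (0.07), Atp5g1 (0.11), Atp5s (0.12), Ndufa11 (0.13) and Ndufa4l2 (0.13). Atp5g1 had 216 with ROS and 200 without, while Atp5g3 had 1098 and 788, and Atp5g2 716 and 507. In complex II the values with and without ROS were 313 and 201 for Sdha, 379 and 294 for Sdhb, 257 and 190 for Sdhc, and 409 and 228 for Sdhd. In complex IV they were 525 and 346 for Cox5a, 882 and 540 for Cox5b, 1057 and 655 for Cox6c, 254 and 141 for Cox7b, 1255 and 759 for Cox7c, and 998 and 640 for Ndufa4.

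Day 8 with ROS was the highest of all 11 samples for 55 of 78 members, against 8.45% of all genes, and WT A was the highest for 17 more. The preadipocyte or fibroblast list had the opposite sign. All 8 genes were lower with ROS at day 8, with a summed FPKM of 223 against 870, and also at day 4, with 364 against 536. On differentiation only 4 of the 8 were called lower, beside 20.6% of all genes, and Pdgfra had a positive log2 ratio (0.99) that did not pass. Ly6a made much of the sums, with 108 and 495 at day 8 with and without ROS, beside 424 and 484 at day 0. The summed adipocyte markers were 36322 and 11965 at day 8, and 7 of 10 were higher with ROS, but Fabp4, a fatty acid carrier, made most of these sums, and the other 9 genes summed to 4920 and 4334. The beige or brown markers summed to 225 and 50.9 at day 8 with and without ROS, with all 6 higher with ROS. In these bulk samples a larger share of differentiated cells and more RNA per cell cannot be told apart. The part of these markers in the difference was not tested.

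**Figure D3:**
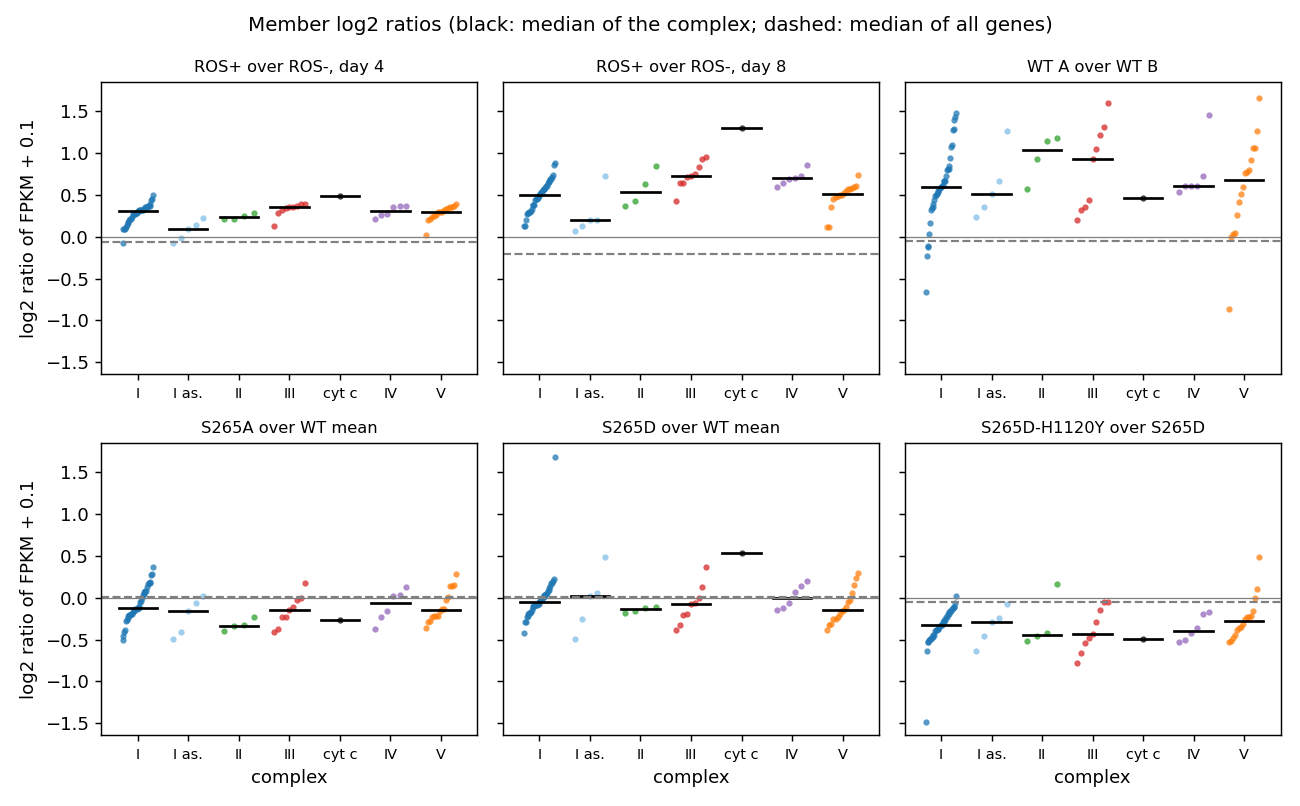
Log2 ratio of FPKM + 0.1 for each member, by complex, in 6 comparisons; black bars are the median of a complex, the dashed line is the median of all 12263 genes, and 1 sample stands for each group except WT, where samples A and B were averaged in the ratios of S265A and S265D. All members lie above 0 at day 8 with ROS, and the ratios of WT A over WT B run from -0.86 to 1.66.

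In the transduced samples the question was whether the phosphorylation site and the demethylase activity of JMJD1A set the level of these genes. WT A and WT B, both labelled as wild type, differed first. Of 78 members, 72 were higher in WT A than in WT B, with a median log2 ratio of 0.61, or 1.52-fold, and 19 were 2-fold or more higher and 0 lower. Over all genes 46.7% were higher, 7.61% were 2-fold or more higher and 11.6% 2-fold or more lower. The median FPKM of the members was 317 in WT A, close to the 341 of untransduced cells at day 8 with ROS, and 185 in WT B, closer to the 220 without ROS. The medians of S265A (210), S265D (230) and S265D-H1120Y (181) were also closer to the 220.

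Among the largest ratios of WT A over WT B were those of Atp5a1 (log2 ratio 1.66), Uqcrc1 (1.60), Cox5a (1.46) and Ndufa1 (1.43). Atp5a1 had FPKM of 842 in WT A and 266 in WT B, which is near its day 0 values. Complex II had the largest median (1.04), followed by complex III (0.93), and the other groups had 0.46 to 0.68. The 6 members not higher in WT A were Atp5s (-0.86), Ndufa7 (-0.66), Ndufc1 (-0.23), Ndufs5 (-0.12), Ndufv3 (-0.11) and Atp5h (-0.01). Cycs had 366 and 266 in the pair. The preadipocyte or fibroblast genes summed to 373 in WT A and 965 in WT B, with all 8 lower in WT A and Ly6a at 116 and 496. The beige or brown markers summed to 201 and 26.9, with all 6 higher in WT A, and the adipocyte markers to 16053 and 30081, with 7 of 10 higher in WT A. Fabp4 again made most of the sums, with 12393 in WT A against 26902, and the other 9 adipocyte markers summed to 3660 and 3178. Acta1, a muscle actin, was at 1.40 and 19.3 in WT A and B, and Cd68, a macrophage lysosomal gene, at 5.00 and 16.6, while Mb, the muscle myoglobin, was at 15.7 and 4.08. The other genes of those lists were at or under 1.27. What share these markers had in the gap between both WT samples was not tested.

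S265A lay between the WT samples. For 57 of 78 members its FPKM was below WT A and above WT B, against 26.3% of all genes. Against the mean of the pair the median log2 ratio was -0.14, with 23 members higher, beside 51.7% of all genes. Against WT B alone it was 0.23 and against WT A alone -0.46, so that the direction turned with the sample chosen. The highest ratios to the WT mean were those of Ndufa6 (0.37), Ndufb9 (0.29), Atp5g2 (0.29), Ndufa13 (0.27) and Ndufb7 (0.18), and the lowest those of Ndufs1 and Atp5sl (both -0.50), Ndufa12 (-0.46), Ndufv2 (-0.41) and Ndufaf4 (-0.40). S265A was above both WT samples for 8 members and below both for 9, against 24.3% and 20.9% of all genes.

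S265D likewise lay between WT A and WT B for 62 of 78 members, against 27.1% of all genes. Its median log2 ratio was -0.08 to the WT mean, with 28 members higher beside 51.9% of all genes, and 0.28 to WT B and -0.38 to WT A. Above both WT samples were 6 members, beside 22.0% of all genes, among them Cycs with FPKM of 450 in S265D beside 366 and 266 in WT and 259 in S265A. Ndufa4l2 was the only member 2-fold or more higher than the WT mean (log2 ratio 1.69), beside 2.62% of all genes. The next were Cycs (0.53), Ndufaf4 (0.48), Uqcrb (0.37) and Atp5h (0.29). The lowest were Ndufaf3 (-0.49), Ndufs7 (-0.42), Uqcr11 (-0.38), Atp5d (-0.38) and Atp5o (-0.33).

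In S265D-H1120Y nearly all members were lower than in S265D. Only Atp5g1, Sdhb, Atp5g2 and Ndufb9 were not, which makes 4 of 78 higher against 44.7% of all genes. The median log2 ratio was -0.34, or 0.789-fold, over the members and -0.05 over all genes. Ndufa4l2 was the 1 member 2-fold or more lower (-1.49), beside 4.93% of all genes, followed by Uqcrfs1 (-0.79), Uqcrb (-0.65), Atp5sl (-0.64) and Ndufb3 (-0.64). Uqcrfs1 had 237 in S265D and 137 in S265D-H1120Y, and Uqcrb had 525 and 334. At the other end were Atp5g1 (0.49), with 174 and 244, Sdhb (0.17), with 220 and 248, Atp5g2 (0.10), Ndufb9 (0.03) and Atp5j, with 256 in both. By complex the medians went from -0.28 for complex V to -0.44 for complex II, with -0.49 for Cycs.

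WT A was the highest of the 5 transduced samples for 63 of 78 members, against 31.4% of all genes, and S265D-H1120Y was the lowest for 43 and WT B for 26, against 25.1% and 17.9%. The preadipocyte or fibroblast genes summed to 500 in S265A, 741 in S265D and 471 in S265D-H1120Y, and the adipocyte markers to 26816, 26071 and 16432, or without Fabp4 to 2909, 3198 and 2304. Ly6a was at 199, 417 and 165 in the same samples. The beige or brown markers summed to 46.8, 164 and 91.1, with all 6 lower in S265D-H1120Y than in S265D. The median log2 ratio of the members in S265D-H1120Y over WT B was -0.05. In limma over the 5 samples, 0 members and 0% of all genes passed in S265A against WT, in S265D against WT and in S265D-H1120Y against S265D. An unadjusted p under 0.05 was reached by 0 members in each, against 0.497%, 0.424% and 1.14% of all genes. Only WT has more than 1 sample, and the median limma SE of a member was 0.52 against WT, and the median differences between samples given here for the mutants were smaller than the 0.61 between WT A and WT B, apart from that of S265D-H1120Y to WT A (-0.62).

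**Figure D4:**
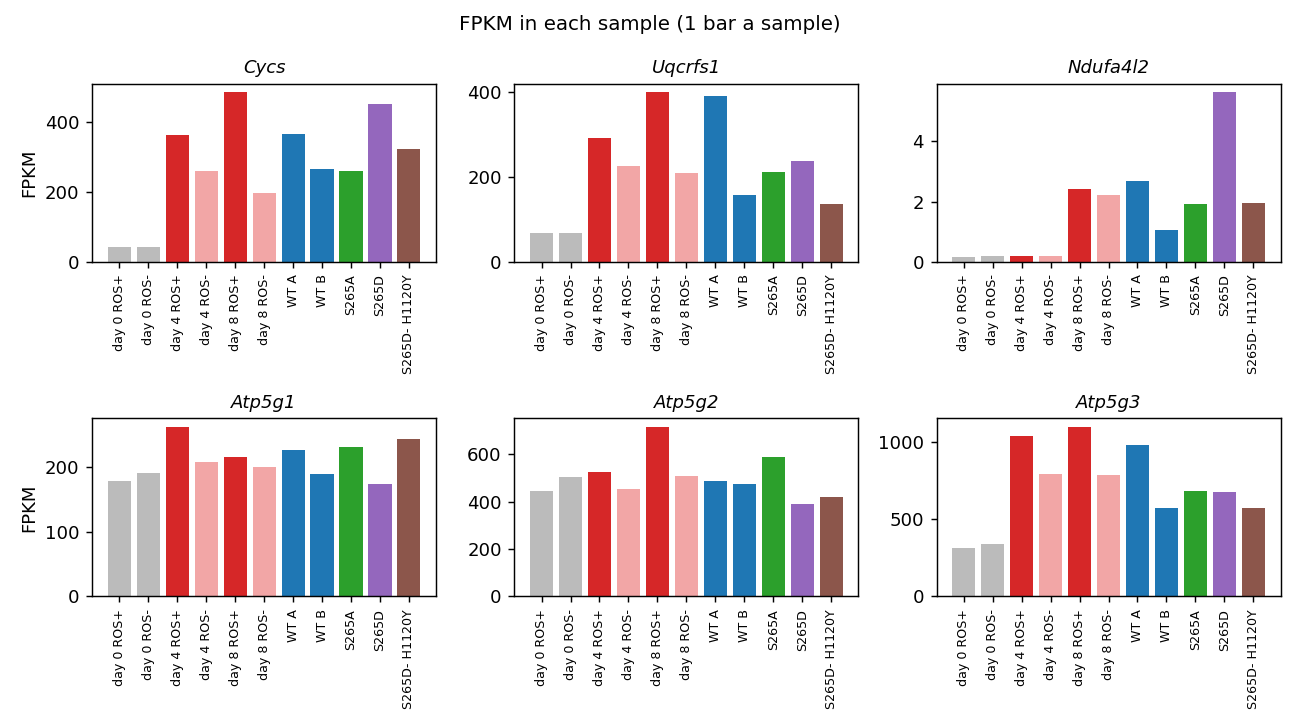
FPKM of Cycs, Uqcrfs1, Ndufa4l2 and the 3 c-subunit genes Atp5g1, Atp5g2 and Atp5g3 in each sample, 1 bar a sample, with axes from 0. Cycs and Atp5g3 rise from day 0 to all later samples, Atp5g1 and Atp5g2 overlap with day 0, and Ndufa4l2 appears by day 8.

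Other genes of the same pathway were grouped in lists by function. In the same fit of differentiated against day 0 samples, 19.4% of all genes were higher and 20.6% lower. Of the assembly factors of complexes II to V, 12 of 19 were higher in the differentiated samples than at day 0 and 1 was lower. The rising ones included Atpaf2, a chaperone of ATP synthase (log2 ratio 1.89), and Cox11, which helps to insert copper into complex IV (1.28). The lower one was Atpif1, the inhibitor of ATP synthase (log2 ratio -1.13, SE 0.28, limma adjusted p = 0.00739), with FPKM of 211 and 230 at day 0 and from 72.2 to 156 later. Of the other complex I assembly factors 3 of 5 were higher, with Foxred1 first (2.10). Among 12 regulators of respiratory genes, 4 were higher and 2 lower, and whether these counts depart from the shares of all genes was not tested. The higher ones were Ppargc1b (5.71) and Ppargc1a (4.48), coactivators of mitochondrial biogenesis, Esrra (2.09), the nuclear receptor ERRα, and Tfb1m (1.06). Pprc1, a relative of the coactivators (-1.07), and Gabpb1, a subunit of the ETS-family regulator GABP (-0.61), were lower. Nrf1 (-0.03), Gabpa (0.12), Yy1 (0.19) and Polrmt (0.20) did not pass. Esrra had FPKM of 7.27 and 7.40 at day 0, 46.5 and 30.4 at day 8 with and without ROS, 60.6 in WT A and 21.0 in WT B, while Nrf1 had 9.24 and 10.5, then 10.0 and 10.1, and 6.24 and 10.5 in the same samples.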

How the data were processed

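RNA-seq of 11 samples was used, grouped by the labels' day, rosiglitazone and JMJD1A entries. The authors sequenced strand-specific TruSeq libraries, aligned reads to UCSC transcripts and the mouse genome (mm9) with Burrows-Wheeler aligner, realigned them locally, and deposited FPKM for each transcript. A deposited signal column gives the mapped bases of each transcript, not read counts. Log10 and log2 columns were not used. The sense row marked as representative stood for each coding gene, and the gene was kept where any sample reached an FPKM of 1. Totals of mapped bases, worked out from FPKM, bases and exon length, were 3.10 to 5.29 Gb. A member's coverage was at least 596 bases in each sample, the minimum being that of Ndufa4l2 at a low FPKM, where counting error adds to the spread between samples. Antisense rows held 0.186% to 0.317% of the member bases.

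Differences were tested across all genes with limma 3.58.1 in R 4.3.3 on log2(FPKM + 0.1), which understates changes of low genes, with Benjamini-Hochberg adjustment at 0.05, in 3 fits: 9 differentiated against 2 day 0 samples, the 6 time course samples in 5 groups and the 5 transduced samples in 4 groups. The script was tested on simulated data with independent noise and larger changes than most reported here. This checks the code and not whether changes as small as those between these samples can be found. Alternatives changed the pseudocount, the minimum FPKM, the scaling, the transcript, the fit and the day 0 or WT sample left out. Counts at the 2-fold cutoff and medians are descriptions. The named members are those of complexes II and IV and cytochrome c, core and c-ring subunits, the 3 most abundant of each complex, the 5 highest and 5 lowest of each main comparison, and those past 2-fold. Ndufa3, Ndufa5, Ndufc2, Ndufs4 and Ndufs6 are outside this rule and were named after their values were seen, and 1 member that the rule names is not reported here. The members, lists and tests were chosen with earlier results of these data known, and the list of mitochondrially encoded genes after the files were seen. Tables and figures were made with Python 3.11.15, numpy 2.4.6, pandas 2.3.3 and matplotlib 3.10.9.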

Additional observations from a re-analysis of the deposited data

Results flagged for a closer look

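Rows of mitochondrially encoded subunits lie outside the coding genes compared above, apart from mt-Nd4, and they carried a strong signal in all samples. At day 8 with ROS the FPKM was 15720 for Cox2, a core subunit of complex IV, 4714 for Atpase6, the a subunit of ATP synthase, and 2781 for Cytb, cytochrome b of complex III, all above both day 0 samples, which had 3541 and 2937, 813 and 595, and 1273 and 982. The copy of Atpase6 on chromosome 1 could share reads with the mitochondrial one. With mt-Nd4 of complex I, the median log2 ratio of the 4 genes was 1.31 for the differentiated over the day 0 samples, 0.72 for ROS at day 8 and 0.81 for WT A over WT B, each with the sign of the nuclear members. In other comparisons the signs differed in some and were the same in others. Yet the day 0 pair already had a median of 0.41 for the 4 genes (ROS plus over minus) and -0.10 for the nuclear members. At day 4 with ROS over without, the 4 genes had a median of -0.16 and the nuclear members 0.29. In S265D-H1120Y over S265D the 4 genes had 0.31, all of them higher, and the nuclear members -0.34. Cytb had 1766 in S265D and 2410 in S265D-H1120Y, and mt-Nd4 1341 and 1781. Each of these groups has 1 sample, and the difference between the nuclear and the mitochondrial genes was not tested.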

How the results depend on the processing

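Of 165 values computed under alternatives, 131 were scored as kept. Some of these could not move, so the total does not measure how stable the results are. A minimum FPKM of 5 keeps all 78 members and so leaves their medians and 2-fold counts unchanged. Counts of 0 that stayed at 0 were also scored as kept. A count was kept if it stayed within a set ratio of the main count. A median was kept if its sign held and it moved by less than a set spread. This spread was 0.43 for the transduced comparisons, from the WT pair, and 0.07 for the others, from the day 0 pair. The first is wide because the WT samples differed, so the move from -0.14 to -0.46 for S265A without WT B was scored as kept. For the 9 differentiated against the 2 day 0 samples, 60 members passed, 23 to 26 with a day 0 sample left out, and the median was 1.10 with median-ratio scaling and 0.98 to 1.09 with 1 day 0 or WT sample left out. At day 4 with ROS, the 71 members called against day 0 became 46 with no minimum FPKM and 3 in 1 fit of all samples. All genes called higher were 12% and 4.53% in these settings. Without ROS the 62 became 28 and 1, beside 10.8% and 3.47% of all genes. No call against day 0 held there without either day 0 sample, where the spread came from the WT pair instead. For day 8 against day 4, a minimum FPKM of 5 gave 5 calls with ROS and 1 without (4.53% and 1.49% of all genes called higher). Scaling gave 2 and 1 (3.19% and 1.35%), a median of 0.52 with ROS and 5 members at 2-fold. For ROS at day 8 the 1 call became 4 with a pseudocount of 1, 21 with a minimum of 5 and 9 with scaling. The shares of all genes called higher were 1.91%, 4.24% and 3.58%. With no minimum, the highest-mean transcript or 1 fit of all samples, 0 members and 0% of all genes were called higher. Without either day 0 sample the spread again came from the WT pair, and no call held. Scaling gave a median of 0.75 and 8 members at 2-fold for ROS at day 8. With 1 WT sample left out, the medians ran from -0.46 to 0.23 for S265A and from -0.38 to 0.28 for S265D, and they reversed without WT A. The members 2-fold lower in S265A numbered 0 to 6 and in S265D 0 to 3, and 2-fold higher in S265D 1 to 2, with a WT sample left out. Of all 12263 genes, 585 in S265A and 546 in S265D were 2-fold lower than in WT A. In S265D 293 were 2-fold higher than in WT B. The additive fit of ROS and day called 0 members, with 17 (21.8%) at an unadjusted p under 0.05 against 14% of all genes, and is the one fit that blocks on day. The cause of these changes was not tested. Apart from WT, each labelled group has 1 sample, so no replicate block was fitted.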
